A study of Mus musculus with 4 samples.

Results

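Glycolysis and gluconeogenesis genes of the mouse trigeminal ganglion are described here: the enzymes that split glucose to pyruvate and lactate, those that run the route backwards, and those that pass pyruvate, acetate, ethanol and aldehydes to and from it. The members are 69 of the 56035 gene rows of the deposited expression table. They are the rows annotated with the glycolysis and gluconeogenesis map whose mean was at least 1 TPM (an abundance per transcript length, scaled to the same total in each library) over the 4 libraries. The map is carried by 610 rows, of which 412 were listed at 0 in every library and 129 had a mean above 0 and below 1 TPM. Of the 69 members, 46 are protein-coding genes with a standard symbol, 18 are rows for copies of Gapdh, and the other 5 are antisense, pseudogene or unprocessed rows. Because the mean level chose the members, levels are given as a description. The rule does not use the comparison between genotypes, but it was set with earlier results of these data known. In addition, 3 rows had a WT mean below 1 TPM and were members only through K823R. They were the Gapdh copies Gm8707 and Gm4804, and Pgam1-ps2. All 46 standard genes had a mean of at least 1 TPM in each group.

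The trigeminal ganglion holds the cell bodies of the sensory neurons of the face, with satellite glia around them and Schwann cells along their axons. RNA came from ganglia of male C57BL/6 mice aged 8 weeks, 2 libraries from mice with the knock-in allele K823R of TRPV1 (a lysine replaced by arginine in the heat- and capsaicin-gated channel of nociceptors) and 2 from wild-type (WT) littermates. The allele is in the germline and so is not limited to neurons, no agent was given according to the labels, and neither zygosity nor the number of animals per library is stated in the labels. The comparison addresses whether transcripts differ with the allele, in a series on TRPV1 SUMOylation and itch. P-values measure only the spread between these libraries, which may be technical.

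Glycolysis converts glucose to pyruvate in the cytosol, with a net gain of ATP and NADH and no need for oxygen. Hexokinase, phosphofructokinase and pyruvate kinase are its essentially irreversible, regulated steps, and most steps are served by isozymes that differ between tissues. In nervous tissue the pathway supplies ATP near membranes and synapses, and glia can pass lactate to neurons, which burn it through pyruvate dehydrogenase and the tricarboxylic acid cycle.

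Depth is unknown for all libraries, because TPM does not keep the number of reads. The libraries listed 15131 to 15371 genes at 1 TPM or more, and mitochondrially encoded genes held 6.09% to 6.88% of the TPM. Defining markers of sensory neurons were abundant, with Uchl1 at 4146 to 4698 TPM and Prph at 1721 to 1912 TPM, and those of satellite glia and myelinating Schwann cells were present, as Apoe at 9905 to 11139 TPM and Pmp22 at 2757 to 3626 TPM show. WT replicate 1 stood apart in markers of central glia: the 5 oligodendrocyte markers summed to 38.2 TPM there against 191 TPM in WT replicate 2 and 235 and 293 TPM in K823R, with Mog listed at 0. The 5 astrocyte markers summed to 16.3 TPM in WT replicate 1, 82.5 TPM in WT replicate 2 and 102 and 97.3 TPM in K823R. WT replicate 1 also had the lowest value for each of 6 fibroblast, 5 endothelial and 6 macrophage markers. It was lowest for 4 of 5 myelinating Schwann cell, 1 of 5 satellite glia and 0 of 8 sensory neuron markers. The endothelial markers summed to 63.5 and 81.35 TPM in WT against 86.15 and 76.4 TPM in K823R. Markers of skeletal muscle, which is rich in glycolytic enzymes, were scarce, with Tnnt3 at 0 in 3 libraries. Summed over 8 genes they reached 3.57 and 4.17 TPM in WT against 6.93 and 5.26 TPM in K823R, without overlap. Those of adipocytes summed to 4.50 to 5.82 TPM over 5 genes, with Lep at 0 in all. The groups also lay apart in markers of the pituitary, which summed over 5 genes to 2.54 and 4.80 TPM in WT against 23.8 and 19.98 TPM in K823R, and those of macrophages, at 50.8 and 79.98 TPM over 6 genes in WT against 83.5 and 110.4 TPM in K823R. Their part in the differences below was not tested.

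The members held a large share of the transcriptome, led by GAPDH. Summed over the 69 rows they reached 15390 and 14193 TPM in WT against 16000 and 15492 TPM in K823R, which is 1.42% to 1.60% of all TPM. Taken by step, with the isozymes of a step added, the order of levels was the same in the 4 libraries. GAPDH was highest at 2878 to 3320 TPM, followed by aldolase at 2106 to 2412 TPM and lactate dehydrogenase at 1376 to 1479 TPM. Pyruvate kinase (1117 to 1311 TPM), enolase (1015 to 1177 TPM) and triosephosphate isomerase (659 to 766 TPM) came next. Phosphoglycerate mutase stood at 502 to 543 TPM, phosphoglycerate kinase at 445 to 483 TPM and glucose-6-phosphate isomerase at 395 to 449 TPM. The early regulated steps were lowest, phosphofructokinase at 355 to 434 TPM and hexokinase at 122 to 153 TPM. Some neighbours in this order did not differ beyond their spread: the ranges of pyruvate kinase and enolase overlapped, and that of glucose-6-phosphate isomerase overlapped those of phosphoglycerate kinase and phosphofructokinase.

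**Figure D1:**
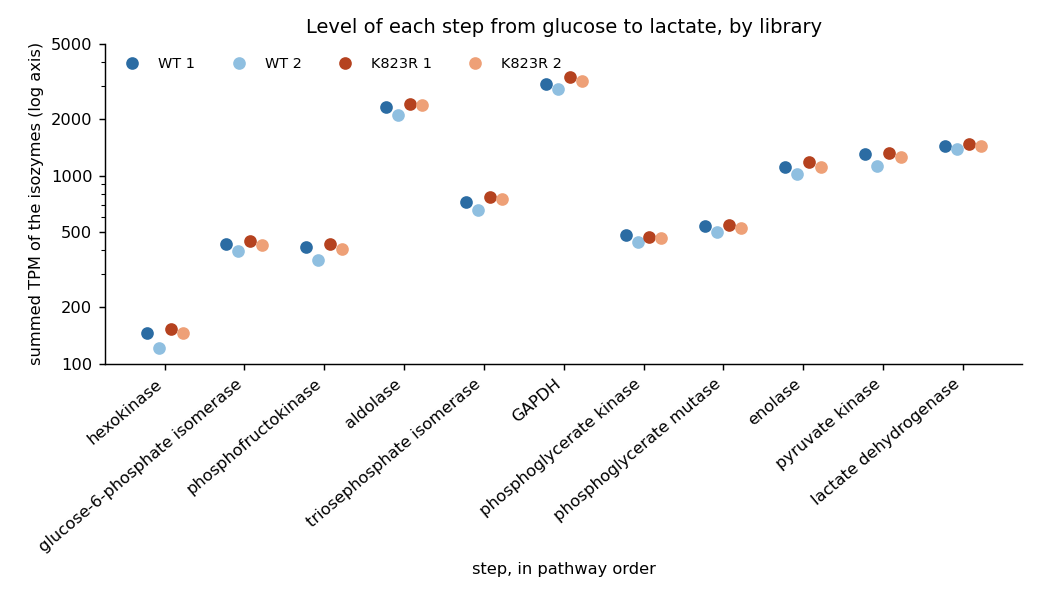
Summed TPM of the isozymes of each step from glucose to lactate (log axis) in pathway order, 1 point per library. GAPDH is highest at 2878 to 3320 TPM and hexokinase lowest at 122 to 153 TPM in each library, and WT replicate 2 is the lowest point at each step.

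In most steps 1 isozyme carried most of the message. Hk1, the hexokinase of brain and nerve that binds mitochondria, held 97.3% and 97.5% of hexokinase TPM in WT and 97.8% and 97.6% in K823R, while Hk2, the insulin-responsive form, stood at 3.01 and 1.86 TPM in WT against 2.34 and 1.59 TPM in K823R. Aldoa held 92.5% to 93.2% of aldolase TPM and Aldoc, the neural form, 6.74% to 7.38%. Pgam1 held 99.68% to 99.76% of phosphoglycerate mutase TPM, and Pkm 99.9886% to 99.9977% of pyruvate kinase TPM. Phosphofructokinase was shared: Pfkp (platelet type) held 48.5% to 51.9%, Pfkm (muscle type) 38.3% to 41.2% and Pfkl (liver type) 9.71% to 10.3%. Lactate dehydrogenase was mostly Ldhb, the heart-type subunit, at 65.1% to 68.6%, with Ldha, the muscle-type subunit, at 31.4% to 34.9%. The groups overlapped for the leading isozyme of each of these steps other than hexokinase, pyruvate kinase and phosphoglycerate mutase, where 1 isozyme held nearly all of the step.

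Enolase was close to evenly split between Eno1, the ubiquitous form, and Eno2, the form long used as a marker of neurons. Eno1 held 51.9% and 51.8% of enolase TPM in WT and 54.9% and 53.6% in K823R, a difference of 2.42 percentage points. Eno2 held 47.3% and 47.0% in WT and 44.1% and 45.4% in K823R. The groups did not overlap for either share, and the shares were not tested, since 2 libraries against 2 cannot give an exact permutation p below 0.333. Eno3, the muscle form, held 0.823% to 1.17% of the step.

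Some genes of the map that serve other tissues were below the 1 TPM rule, while others passed it, as Eno3, Pgam2 and Fbp1 did. Below it were the liver-type genes Pklr, Pck1 and G6pc, and Hk3 of white blood cells. Among the germ-cell isozymes, Pgk2, Ldhc, Pdha2, Gapdhs and Aldoart1 were listed at 0 in all libraries. Just inside the rule were Gm8707 at a mean of 1.11 TPM and Gm49759 at 1.24 TPM, and among those just outside were Gm5345 at 0.902 TPM and Gapdh-ps15 at 0.792 TPM.

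**Figure D2:**
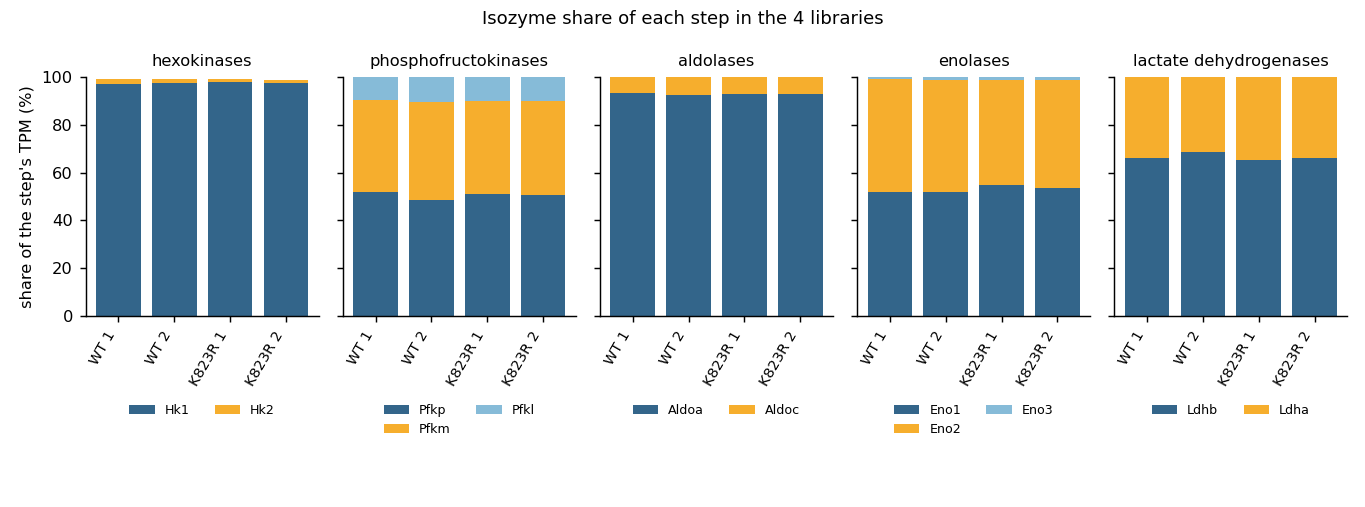
Share (%) of a step's TPM held by each isozyme in the 4 libraries, with bars stacked from the leading isozyme and scarce isozymes not drawn. Hk1 holds 97.3% to 97.8% and Aldoa 92.5% to 93.2% of their steps, the phosphofructokinases and lactate dehydrogenases are shared, and Eno1 holds 51.8% to 54.9% of enolase.

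Many copies of the Gapdh message lie in the mouse genome, and whether their rows can be read apart from Gapdh bears on the largest values of the pathway. Gapdh (ENSMUSG00000057666) occupies bases 125161715 to 125166467 of chromosome 6 in GRCm38, minus strand. In the 150 bases that 1 read spans, 81.5% of the windows of its 1273-base transcript are also found in at least 1 of 49 other annotated genes. The Gapdh reading frame used here is the last 1002 of the 1080 bases annotated as coding, stop codon included. It starts at an inner ATG and was chosen as the stretch that Gm12671 holds whole. Gm12671 and Gm10359, processed pseudogenes on chromosomes 4 and 5, are identical to each other and to this frame. Gm7336 on chromosome 7 holds the same frame without a substitution. A further 7 copies differ from that frame by 1 substitution, 2 by 3 substitutions, and the remaining 6 by 7 to 168. Bases 334 to 393 of the frame, counted from the A of the ATG, are printed because 3 of the copies with a single substitution have it there. Capitals mark bases that differ from Gapdh, and Gm4804 is shown as a more diverged copy.

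Gapdh: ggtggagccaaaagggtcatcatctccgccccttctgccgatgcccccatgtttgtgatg
Gm12671: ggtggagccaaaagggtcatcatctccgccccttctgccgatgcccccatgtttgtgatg
Gm13394: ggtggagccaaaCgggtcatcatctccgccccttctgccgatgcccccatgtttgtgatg
Gm12070: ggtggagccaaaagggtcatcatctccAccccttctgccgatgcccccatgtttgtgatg
Gm5559: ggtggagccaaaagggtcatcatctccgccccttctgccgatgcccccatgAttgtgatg
Gm4804: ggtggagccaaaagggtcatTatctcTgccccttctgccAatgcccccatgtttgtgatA

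The 3 copies without a substitution had the highest copy values, at 403 and 406 TPM in WT against 429.6 and 440.2 TPM in K823R for Gm7336. The identical pair had unequal values: Gm12671 stood at 313 and 284 TPM in WT against 309 and 294 TPM in K823R, and Gm10359 at 308 and 259.9 TPM in WT against 307 and 309.5 TPM in K823R. Their ratio ran from 0.949 to 1.09 over the libraries, although no read inside the 1002 bases can tell them apart. The 7 copies with 1 substitution had means of 3.96 to 18.3 TPM. Together the 18 copies held 26.6% and 26.1% of the GAPDH-annotated TPM of the members in WT and 25.7% and 26.3% in K823R. Values of Gapdh and of its near-identical copies are therefore uncertain in how reads were divided between them, and the sum of the 19 rows was 4197 and 3897 TPM in WT against 4466 and 4300 TPM in K823R.

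**Figure D3:**
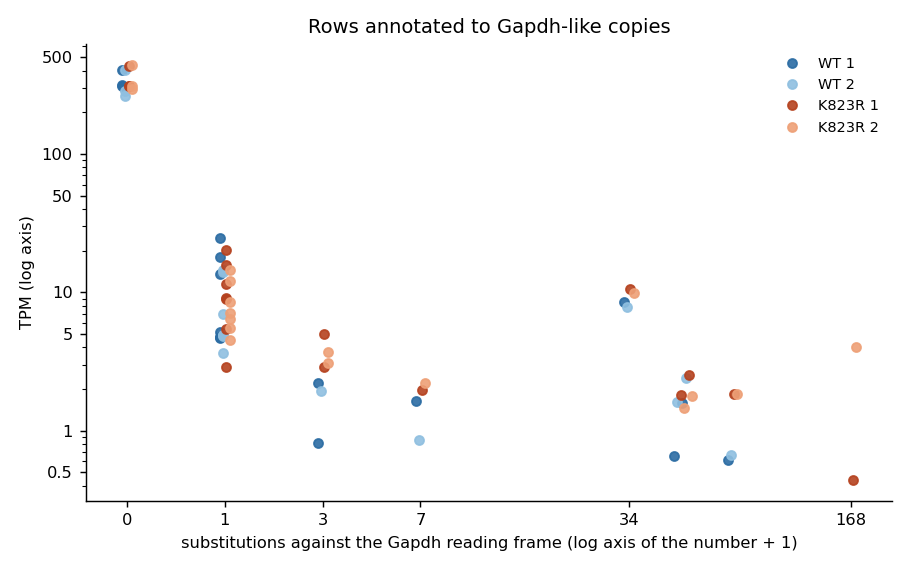
TPM (log axis) of the 18 Gapdh copies among the members, 1 point per library, against the number of substitutions from the Gapdh reading frame. The 3 copies without a substitution lie at 259.9 to 440.2 TPM and the 7 with 1 substitution have means of 3.96 to 18.3 TPM; values of 0 are not drawn.

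The other abundant glycolytic enzymes share less sequence with other rows than Gapdh does. Identical 150-base windows made up 66.1% of the Pgk1 transcript (with Pgk1-rs7 and Gm5537, both listed at 0) and 49.0% of Eno1 (with Eno1b and Gm4735, at most 0.34 TPM). They made up 37.9% of Pgam1, all shared with Pgam1-ps2, a pseudogene row whose windows all lie in Pgam1 and which was listed at 0 in 3 libraries and at 7.74 TPM in K823R replicate 2. Aldoa, Tpi1, Ldha, Ldhb, Eno2, Hk1, Gpi1 and the phosphofructokinases share no such window.

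No member passed the test between genotypes, and the differences of the abundant enzymes were small and mostly in 1 direction. By limma on log2(TPM + 1), with Benjamini-Hochberg adjustment over 15390 genes, 0 of 69 members had an adjusted p below 0.05, where 1 gene of all tested did (0.0065%). The lowest adjusted p of a member was 0.918. Unadjusted p was under 0.05 for 5 members, which is 7.25% against 4.76% of all genes tested. These were Acss2 and the Gapdh copies Gm5138, Gm12537, Gm4804 and Gm12070. Gm4804 was a member only through K823R, and among the 66 members with a mean of at least 1 TPM in each group the count was 4 (6.06%), against 4.38% of all genes chosen in that way. Each difference given below is the K823R mean less the WT mean of log2(TPM + 1), a scale that shrinks changes at low levels.

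Counted by sign, 56 of the 69 members (81.2%) had a K823R mean above the WT mean on that scale, against 57.4% of all genes. The median difference was 0.12 for the members and 0.03 for all genes tested. Values of the 2 K823R libraries exceeded both WT values for 28 members (40.6%), against 19.4% of all genes, and below for 2 members (2.90%), Dld being the more abundant, against 14.6%. Among the 46 standard genes alone 38 were on the higher side, with a median of 0.07, and the groups did not overlap for 17 above and 2 below. Among the 66 members with a mean of at least 1 TPM in each group 53 were on the higher side (80.3%), and 26 lay above without overlap (39.4%). WT replicate 2 set part of this pattern: without it 43 members remained on the higher side and the median was 0.05, while that of all genes was -0.0022. Genes of a pathway move together in a library, so the members are not independent of each other. The pathway was also chosen with earlier results of these data known, so these shares are a description.

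**Figure D4:**
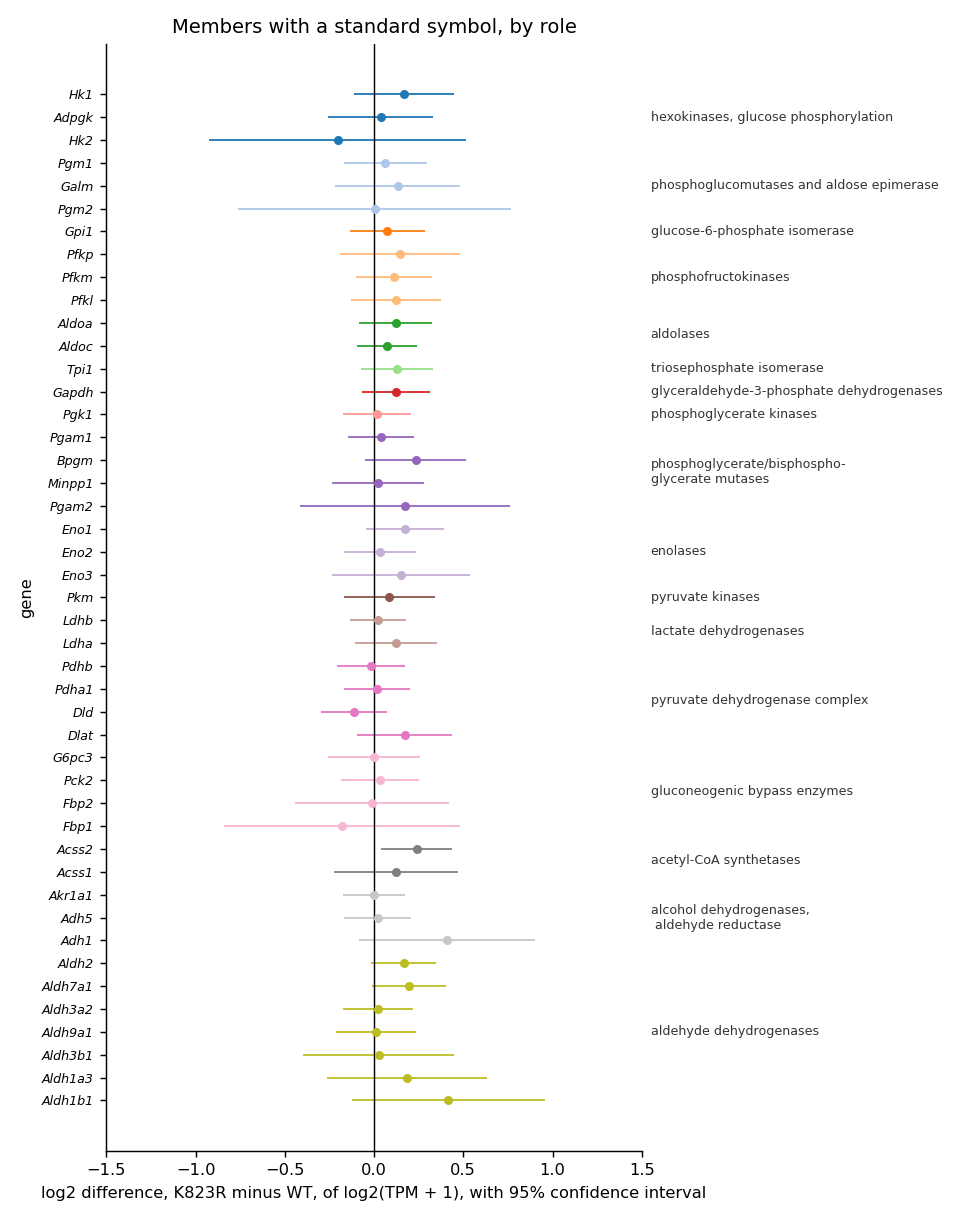
Log2 difference (K823R minus WT, of log2(TPM + 1)) of 45 members with a standard symbol, grouped by role, with 95% confidence intervals from limma. Of the 45, 38 lie right of 0; the interval of Acss2 (0.04 to 0.44) does not cross 0 before adjustment, and no member passed after it.

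The enzymes from glucose to pyruvate had lower levels in WT replicate 2 than in the other libraries. Summed over the 19 members of these steps, including Adpgk, which phosphorylates glucose with ADP, the level was 10571 and 9608 TPM in WT against 11055 and 10641 TPM in K823R. Both K823R sums were above both WT sums, K823R replicate 2 only narrowly above WT replicate 1, and the log2 ratio of the group means was 0.10. Without WT replicate 2 it was 0.04 and without WT replicate 1 it was 0.18. Of the 16 enzymes averaging at least 10 TPM all were on the higher side in K823R, by 0.02 to 0.17, and 14 of them had their lowest value in WT replicate 2. Without that library 10 of the 16 were on the higher side, and with median-of-ratios scaling of the libraries 15, Pgk1 being the exception at -0.0059. For comparison, 42.8% of all genes averaging at least 10 TPM were lowest in WT replicate 2, and 49.0% of those averaging at least 100 TPM. Of all genes averaging at least 10 TPM, 58.2% were on the higher side in K823R.

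The summed level of the sensory neuron markers was also lowest in that library, in which 6 of the 8 genes had their lowest value. The sum was 15864 and 13809 TPM in WT against 15233 and 14790 TPM in K823R. Set against it, the sum of the steps from glucose to pyruvate was 66.6% and 69.6% in WT and 72.6% and 71.9% in K823R. The sum of 5 myelinating Schwann cell markers was 6195 and 8083 TPM in WT against 7829 and 9299 TPM in K823R. Mbp was a large part of it, at 2797 and 4343 TPM in WT against 3976 and 4882 TPM in K823R. By log2 difference 4 of the 5 were on the higher side in K823R, and Ncmap on the lower (-0.08). The share of mitochondrially encoded genes was highest in WT replicate 2. The part of cell makeup in the differences was not tested, and in bulk ganglia fewer cells of a type and less RNA per cell cannot be told apart.

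**Figure D5:**
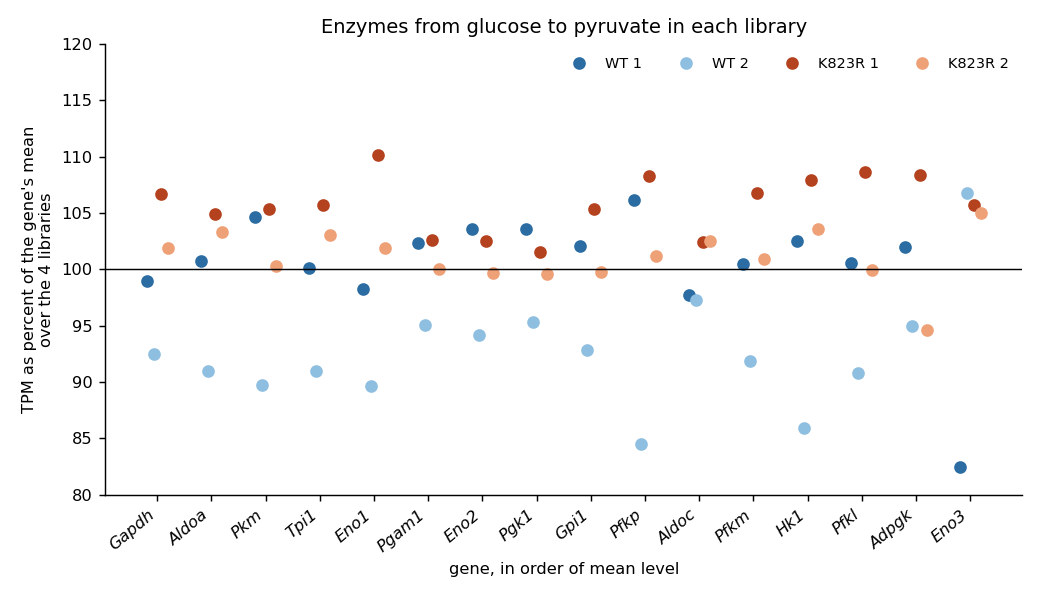
TPM of the 16 enzymes from glucose to pyruvate with a mean of at least 10 TPM, as a percent of each gene's mean over the 4 libraries, 1 point per library. WT replicate 2 is the lowest point for 14 of the 16 genes and K823R replicate 1 the highest for 12.

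Among the entry and investment steps, Hk1 had 143 and 119.9 TPM in WT against 151 and 145 TPM in K823R. Both K823R values exceeded both WT values, by a log2 difference of 0.17 (SE 0.11, limma adjusted p = 0.918). Gpi1, which turns glucose 6-phosphate into fructose 6-phosphate, had 435 and 395 TPM in WT against 449 and 425 TPM in K823R, and the groups overlapped. Pfkp had 216 and 172 TPM in WT against 221 and 206 TPM in K823R, an overlap in which WT replicate 2 alone was low. Pfkm had 159.8 and 146 TPM in WT against 169.9 and 161 TPM in K823R, and the K823R libraries lay just above. Pfkl overlapped at 36.5 to 43.7 TPM. Aldoa, which cuts fructose 1,6-bisphosphate into the triose phosphates, had 2157 and 1948 TPM in WT against 2247 and 2211 TPM in K823R (log2 difference 0.12, SE 0.08). Without WT replicate 2 the difference was 0.05 for Aldoa and 0.04 for Hk1. Aldoc varied little within its groups, at 156 and 155 TPM in WT against 164 and 164 TPM in K823R, a log2 difference of 0.07.

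In the steps that yield ATP and NADH, Gapdh had 3081 and 2878 TPM in WT against 3320 and 3169.8 TPM in K823R. The groups did not overlap, and the log2 difference was 0.12 (SE 0.07, 95% confidence interval -0.07 to 0.32). Tpi1, which interconverts the triose phosphates, had 726 and 659 TPM in WT against 766 and 747 TPM in K823R, again without overlap, with a log2 difference of 0.13. Without WT replicate 2 the differences were 0.07 for Gapdh and 0.06 for Tpi1. Pgk1, the first ATP-yielding enzyme, overlapped at 483 and 445 TPM in WT against 473 and 464 TPM in K823R. Pgam1 overlapped as well, at 539 and 501 TPM in WT against 541 and 527 TPM in K823R. Eno1 (chromosome 4, 150236721 to 150248879) had 576 and 525 TPM in WT against 646 and 597 TPM in K823R. Both K823R values were above both WT values, and the log2 difference of 0.17 (SE 0.08, limma adjusted p = 0.918) was the highest of the 16 abundant enzymes, and was 0.11 without WT replicate 2. Eno2 had 525 and 478 TPM in WT against 519.6 and 506 TPM in K823R, with both K823R libraries inside the WT range. Pkm, whose enzyme makes pyruvate, had 1302 and 1117 TPM in WT against 1311 and 1248 TPM in K823R, also with overlap. Bpgm, which makes 2,3-bisphosphoglycerate, had 30.2 and 26.4 TPM in WT against 31.8 and 35.0 TPM in K823R, a log2 difference of 0.23 (SE 0.11, limma adjusted p = 0.918) without overlap, which was 0.14 without WT replicate 2. Bpgm is abundant in red cells, and the 5 erythroid markers summed to 492 and 245 TPM in WT against 319 and 334 TPM in K823R. Their part in the Bpgm values was not tested.

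At the pyruvate branch, Ldhb, whose subunit favours lactate use, had 943 and 943 TPM in WT against 963 and 954 TPM in K823R. Its groups did not overlap, but the log2 difference was only 0.02 (95% confidence interval -0.14 to 0.18), and it was -0.00025 with median-of-ratios scaling. Ldha had 487 and 432 TPM in WT against 516 and 485 TPM in K823R, and the groups overlapped. Of the 4 members of the pyruvate dehydrogenase complex, which feeds pyruvate to mitochondria, 2 were on each side. Dld, the dihydrolipoyl dehydrogenase subunit shared with other complexes, had 97.4 and 100.2 TPM in WT against 89.2 and 93.4 TPM in K823R. It was the only member above 10 TPM with both K823R libraries below both WT libraries (log2 difference -0.11, SE 0.07, limma adjusted p = 0.918). Dlat, the acetyltransferase subunit, had 69.8 and 64.6 TPM in WT against 81.3 and 70.7 TPM in K823R, without overlap in the other direction. Pdhb (277 to 297 TPM) and Pdha1 (177 to 188 TPM), which form the decarboxylase, overlapped.

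The gluconeogenic bypass was represented by mitochondrial Pck2 and by the ubiquitous glucose-6-phosphatase G6pc3, both without clear difference. Pck2 had 37.5 and 34.6 TPM in WT against 36.5 and 37.2 TPM in K823R, and G6pc3 had 70.9 and 61.3 TPM in WT against 67.1 and 64.7 TPM in K823R. The fructose-bisphosphatases were scarce, with Fbp1 at 1.41 to 2.39 TPM and Fbp2 at 6.31 to 8.05 TPM, and 3 of these 4 genes were on the lower side by at most 0.18. Pgm1, the phosphoglucomutase that links glycolysis to glycogen, had 93.4 and 82.7 TPM in WT against 92.4 and 91.5 TPM in K823R.

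Among the enzymes of acetate and aldehydes, Acss2 (ENSMUSG00000027605, chromosome 2, plus strand, 155517948 to 155585724), which makes acetyl-CoA from acetate in cytosol and nucleus, had the smallest p of the standard genes. It had 52.0 and 52.9 TPM in WT against 63.9 and 60.1 TPM in K823R. Both K823R values exceeded both WT values, and the log2 difference was 0.24 (SE 0.08, 95% confidence interval 0.04 to 0.44). It did not pass the adjusted threshold (limma adjusted p = 0.918), and the difference was 0.19 to 0.28 when each library was left out. Acss1, the mitochondrial form, had 5.58 and 5.91 TPM in WT against 5.94 and 6.76 TPM in K823R. All 7 aldehyde dehydrogenases were on the higher side, and the groups did not overlap for 3 (42.9%), against 19.4% of all genes with both K823R libraries above and 34.0% without overlap in either direction. Aldh2, the mitochondrial enzyme that clears acetaldehyde, had 221 and 234 TPM in WT against 251 and 259 TPM in K823R (log2 difference 0.17, SE 0.07). Aldh7a1 had 51.1 and 52.4 TPM in WT against 61.4 and 57.4 TPM in K823R, likewise without overlap, with a log2 difference of 0.20. The third, Aldh1b1, was scarce at 3.44 and 2.37 TPM in WT against 4.46 and 3.88 TPM in K823R. Akr1a1, the aldehyde reductase, was the most abundant member outside the glycolytic steps, at 803 and 759 TPM in WT against 786 and 775 TPM in K823R, with a log2 difference of -0.00080.

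Of the 18 Gapdh copies, 4 had an unadjusted p under 0.05, all on the higher side. Among the 16 with a mean of at least 1 TPM in each group, which leaves out Gm4804, there were 3 (18.8%), against 4.38% of all genes chosen in that way. Most copies can share reads with each other, so these are not independent. Gm4804, Gm6981 and 3000002C10Rik had no 150-base window found in another annotated gene. Gm5138 had 0.81 and 1.93 TPM in WT against 4.98 and 3.68 TPM in K823R (log2 difference 1.20, SE 0.31). Gm12537 had 5.14 and 4.87 TPM in WT against 8.88 and 7.10 TPM in K823R. Gm12070 had 4.71 and 6.96 TPM in WT against 9.07 and 8.50 TPM in K823R, and Gm4804 had 0.61 and 0.67 TPM in WT against 1.85 and 1.83 TPM in K823R. Other copies had differences of the opposite sign, as Gm2606 did at 18.0 and 14.6 TPM in WT against 15.8 and 12.1 TPM in K823R. Gm12537 and Gm2606 each differ from Gapdh by 1 substitution.

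The pathway's genes are known targets of hypoxia-inducible factor, whose binding core can be ACGTG or GCGTG. The bases before the start sites were searched for ACGTG only. RefSeq promoters on GRCm38.p6 were found for 41 of the 46 standard genes, as 53 start sites, and the 250 bases before each were searched for ACGTG on both strands. ACGTG lies inside CACGTG, the E-box of MYC and ChREBP, so the 2 overlap. It was present in 18 of the 53 promoters (34.0%) and in 16.6% of all 32851 promoters of the table. A promoter of Ldha and that of Pgk1 are shown as glycolytic promoters that hold ACGTG at more than 1 place, with capitals marking ACGTG or its complement. In this Ldha window it was matched 5 times over both strands, 4 of them in the 2 CACGTG sites, and in Pgk1 2 times. The table holds another Ldha start site, whose window had 0 matches. Promoters of Gapdh, Eno1, Tpi1 and Hk1 did not contain ACGTG in the window, which does not mean that they lack the GCGTG form.

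Ldha promoter, chr7:46845554-46845803, plus strand: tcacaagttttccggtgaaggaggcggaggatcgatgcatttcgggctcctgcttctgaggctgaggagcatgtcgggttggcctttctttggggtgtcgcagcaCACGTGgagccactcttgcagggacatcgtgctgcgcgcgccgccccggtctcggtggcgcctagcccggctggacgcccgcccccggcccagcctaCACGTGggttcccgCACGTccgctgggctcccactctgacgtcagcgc
Pgk1 promoter, chrX:106186850-106187099, plus strand: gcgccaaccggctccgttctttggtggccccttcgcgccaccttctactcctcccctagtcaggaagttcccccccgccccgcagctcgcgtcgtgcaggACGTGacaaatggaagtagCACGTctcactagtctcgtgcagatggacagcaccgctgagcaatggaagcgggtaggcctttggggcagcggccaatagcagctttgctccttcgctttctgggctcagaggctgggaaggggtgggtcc

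A match is a description of the sequence only. Of 18 tested genes that hypoxia induces outside glycolysis, 10 lay on the higher side in K823R and 8 lower, 0 passed the adjusted threshold, and the median difference was 0.03, against 0.03 for all genes tested. Adm, the vasodilator peptide adrenomedullin, had 0.65 and 0.72 TPM in WT against 2.66 and 1.80 TPM in K823R (log2 difference 0.93, SE 0.26, limma adjusted p = 0.918). Its WT mean was 0.685 TPM, so Adm passed the rule of a mean of 1 TPM only through K823R. That rule favours a higher K823R value, and the Adm difference is given as a description. P4ha2, a collagen prolyl hydroxylase, had 8.60 and 6.44 TPM in WT against 12.1 and 10.1 TPM in K823R (log2 difference 0.51, SE 0.18, limma adjusted p = 0.918), and its difference was 0.33 without WT replicate 2. The 6 fibroblast markers summed to 233 and 490 TPM in WT against 457 and 426 TPM in K823R, and their part in these values was not tested. Vegfa had 25.2 and 23.2 TPM in WT against 26.6 and 31.0 TPM in K823R, and Hif1a itself overlapped at 28.0 to 32.4 TPM. Adm, P4ha2 and Vegfa are among 4 of the 18 genes that lay above without overlap (22.2%, against 19.4% of all genes). Another 1 of the 18 lay below without overlap (5.56%, against 14.6%), so the genes given values do not stand for the list.

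Around the pathway, 0 of 109 tested genes on 7 lists passed the adjusted threshold. Of 13 transporters of glucose, lactate and pyruvate, 9 lay on the higher side in K823R and 4 lower. Both subunits of the mitochondrial pyruvate carrier were on the lower side: Mpc1 had 366 and 386 TPM in WT against 311 and 330.4 TPM in K823R (log2 difference -0.23, SE 0.07, limma adjusted p = 0.918). Mpc2 had 164 and 172 TPM in WT against 140.2 and 156 TPM in K823R (log2 difference -0.18, limma adjusted p = 0.918), and its difference was -0.11 without K823R replicate 1. The groups did not overlap for either, and the 2 of 13 genes with both K823R libraries below are 15.4% of the list, near the 14.6% of all genes. The main glucose transporters overlapped, Slc2a1 at 42.1 to 49.8 TPM and Slc2a3 at 30.8 to 41.7 TPM.

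Of 23 regulators of glycolytic and pyruvate flux, 13 lay on the higher side in K823R and 10 lower, led by Myc at 8.18 and 7.20 TPM in WT against 11.0 and 8.53 TPM in K823R. In the pentose phosphate pathway, which branches at glucose 6-phosphate to make NADPH, 7 of 10 genes were on the higher side, and the groups did not overlap for 6 of the 10 above and 3 below, against 19.4% and 14.6% of all genes. Tkt, its transketolase, had 193 and 176 TPM in WT against 201 and 205 TPM in K823R, and G6pdx, its first enzyme, had 31.5 and 26.6 TPM in WT against 35.2 and 31.7 TPM in K823R. Of 21 genes of the tricarboxylic acid cycle 15 were on the higher side. Sucla2, the ATP-forming succinyl-CoA ligase subunit, had closely repeated values of 247 and 247 TPM in WT against 227 and 226 TPM in K823R, a log2 difference of -0.12 (SE 0.06, limma adjusted p = 0.918). Suclg2, the GTP-forming counterpart, had 7.43 and 9.01 TPM in WT against 9.11 and 11.2 TPM in K823R. Of 16 glycogen genes 11 were on the higher side and of 8 genes of the NADH shuttles 6 were, with no overlap-free gene among the latter.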

How the data were processed

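Messenger RNA of trigeminal ganglia was sequenced as paired reads, with 2 libraries of each genotype, assigned by title. The authors deposited TPM per gene, per the file headers; each TPM column sums to about the same total, and columns holding group means were not used. Per the submitters' processing notes, the build was GRCm38.p6 and the tools were edgeR, RSEM, HISAT2 and fastp 0.19.5, with no roles given; for strand setting and division of shared reads the sources used here give nothing. The deposited gene lengths in bases, per the file headers, were compared with GENCODE M21 (GRCm38), the source of coordinates and transcripts.

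Rows with a mean of at least 1 TPM (15390) were tested with limma 3.58.1 (R 4.3.3) on log2(TPM + 1), with a variance trend, two-sided, Benjamini-Hochberg adjusted at 0.05. The test was checked on simulated data with independent noise and changes larger than those of the abundant enzymes here. That check does not show whether differences as small as theirs could be found. Copies were compared with Biopython 1.88. Named genes were the leading member of each role, further isozymes, the smallest p in each direction, members near the 1 TPM rule and the 2 smallest p of each neighbouring list; others named for a role were chosen after their values were seen. Members, lists and rules were chosen with earlier results of these data known. Some genes are not reported here by name, and those that are members remain in the counts.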

Additional observations from a re-analysis of the deposited data

How the results depend on the processing

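No member and no neighbouring gene passed the adjusted threshold under any of the 12 alternative fits, and the lowest adjusted p of a named gene was 0.579. The count over all genes, 1, became 0 without a filter, with the replicate block and without the variance trend, 2 at a minimum mean of 10 TPM, and 0 to 0 when each library was left out. The block used replicate numbers that pair no samples by the labels (r = 0.05 between deviations of the libraries numbered 1); with it 5 members had an unadjusted p under 0.05, as without. That count was 1 at a minimum mean of 10 TPM and 3 to 10 when each library was left out, 10 without WT replicate 1. Members whose groups did not overlap numbered 30 (43.5%, against 34.0% of all genes), and 16 at a minimum mean of 10 TPM, where 42 members were tested and 33.5% of all genes were without overlap. The median difference of the members was 0.048 to 0.15 when each library was left out. Counts over members with at least 1 TPM in each group, and counts of members on the higher side under the alternatives, were added after the data were seen and ran from 43 to 59, or 36 of 42 at a minimum mean of 10 TPM. Of 51 named genes, 34 kept their sign under each alternative run.

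With median-of-ratios scaling the sign changed for Pgk1 (-0.0059) and Ldhb (-0.00025), and with quantile normalization for Akr1a1 (0.0034) and Minpp1 (-0.0091). When each library was left out the log2 difference ran from -0.054 to 0.13 for Adpgk, -0.041 to 0.039 for Akr1a1, -0.036 to 0.10 for Eno2, -0.018 to 0.32 for Eno3, -0.41 to 0.051 for Fbp1, -0.10 to 0.10 for G6pc3, -0.41 to 0.10 for Gm13394, -0.012 to 0.20 for Got2, -0.45 to 0.040 for Hk2, -0.054 to 0.10 for Minpp1, -0.070 to 0.033 for Pdhb, -0.020 to 0.31 for Pfkp, -0.014 to 0.092 for Pgam1, -0.043 to 0.077 for Pgk1, -0.022 to 0.15 for Pgm1 and -0.026 to 0.19 for Pkm. The cause was not tested. TPM gives no depth, so no detection limit can be stated, and with 2 libraries a group the exact permutation p cannot go below 0.333.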

Other observations

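The 5 members that are neither standard genes nor Gapdh copies stood at low levels. Tmem147os, an antisense row annotated to the sperm-type GAPDH, had 18.5 and 13.2 TPM in WT against 19.1 and 19.6 TPM in K823R. E130215H24Rik, whose span on chromosome 2 (150667494 to 150668935) overlaps the start of Acss1 on the other strand, had 3.92 and 2.97 TPM in WT against 3.61 and 3.09 TPM in K823R. Gm29050, an antisense row, shares 54.5% of its 150-base windows with Ldhal6b and had 2.20 to 2.86 TPM. Gm49759 lies inside Pkm on chromosome 9 and had 0.96 to 1.58 TPM. The sources used here do not state strand use, and reads that these rows share with another gene cannot be told apart. Besides Gm29050, the 150-base windows also found in another annotated gene made up 8.72% of Gm49759, 2.48% of Tmem147os and 0% of E130215H24Rik. For Tmem147os that other gene is an annotation entry of the same name.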
